A study of Mus musculus with 40 samples.

Results

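The adenylyl cyclases are the enzymes that make cAMP from ATP, and all 10 mouse genes, *Adcy1* to *Adcy10*, were taken by their symbols from the 20295 genes counted in brown adipose tissue (BAT). Their transcripts were measured by RNA sequencing of poly(A) RNA in 40 male mice, 5 in each of 8 groups, all housed at thermoneutrality (29 °C). C-3BO mice, 13 to 19 weeks old, overexpressed *Gpr3*, a Gs-coupled receptor that signals without an added ligand, from a CAG transgene in the Rosa26 locus that was opened by *Ucp1*-Cre. Their control littermates carried either the transgene without Cre or Cre without the transgene, so that some controls held each of the alleles alone. These mice ate chow, or high fat diet (HFD) with 60 kcal% fat for 7 days, and were not injected. In a separate cohort, mice labelled wild type, which were 15-week-old control littermates of a tamoxifen-inducible *Gpr3* line, received CL-316,243 (CL), a β3-adrenergic agonist, at 1 mg/kg each day for 9 days. Their controls received saline at 10 µL/g. On HFD the injections began 2 days before the 7 days of diet, and tissue was taken the day after the last injection. Because *Ucp1*-Cre acts from early life in brown and beige adipocytes and CL was given for days, the 2 models also differ in the length of stimulation.

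Adenylyl cyclases stand between receptors and the cAMP-dependent protein kinase: Gs-coupled receptors activate them, Gi-coupled receptors inhibit several of them, and phosphodiesterases remove their product. In brown adipocytes the resulting cAMP drives lipolysis and the transcription of thermogenic genes such as *Ucp1*. The 9 membrane-bound enzymes fall into classes by what else controls them. *Adcy1*, *Adcy3* and *Adcy8* belong to the calcium- and calmodulin-sensitive class, *Adcy2*, *Adcy4* and *Adcy7* to the class stimulated by G protein βγ subunits, and *Adcy5* and *Adcy6* to the class inhibited by calcium. *Adcy9* is only weakly sensitive to forskolin, and *Adcy10* encodes the soluble enzyme that responds to bicarbonate.

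Levels are given as CPM, counts scaled to a common library total that TMM factors adjust, and as CPM per kb of counted exon where genes are compared with each other. Library totals lay between 849126 and 15260516 counts, so the level of 3 counts, taken as the smallest that the depth can show, lay between 0.206 and 3.01 CPM. This limit covers counting error only. *Gpr3* lay between 266 and 463 CPM in chow C-3BO and between 688 and 918 CPM in HFD C-3BO mice, and at or below 0.743 CPM in their controls. The brown adipocyte markers were detected in every group, with a summed level between 13084 and 35173 CPM in single mice. All HFD saline and HFD CL libraries and replicates 4 and 5 of HFD C-3BO carried transcripts of liver and epididymis, with *Alb*, the serum albumin gene, up to 294 CPM. In chow saline and chow CL libraries *Alb* lay at or below 1.01 CPM, so among injected mice diet and these transcripts cannot be told apart. Injected mice also had lower library totals on HFD, at most 7284129 counts, than on chow, at least 7954684 counts. Skeletal muscle markers also varied widely, from 474 to 11428 CPM in summed level among the uninjected chow mice, from 14.1 to 3027 CPM with chow and saline, from 14.8 to 170 CPM with chow and CL, and from 22.1 to 2503 CPM with HFD and saline. With CL on chow, 10 of 11 of them were lower than with saline, at a median log2 fold change of -4.03. In whole tissue, fewer cells of a type and less RNA per cell cannot be told apart.

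*Adcy6* and *Adcy3* together made up most of the cyclase transcripts in BAT. When counts were divided by counted exon length and summed over the 10 genes, *Adcy6* held a mean of 45.8% and *Adcy3* 34.2% over the 40 libraries. *Adcy9* followed with 10.6% and *Adcy4* with 5.58%. *Adcy5*, *Adcy7* and *Adcy10* held 1.73%, 1.22% and 0.660%, *Adcy2* 0.137% and *Adcy1* 0.0338%. *Adcy8*, with 33 counts over all libraries and never more than 3 in one, was the member that did not pass the filter on low counts, and the other 9 were tested. In control mice on chow the levels per length were 63.2 ± 9.12 CPM per kb for *Adcy6*, 34.7 ± 5.72 for *Adcy3* and 14.5 ± 2.63 for *Adcy9* (SD, n = 5, as for all errors of levels given here).

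**Figure D1:**
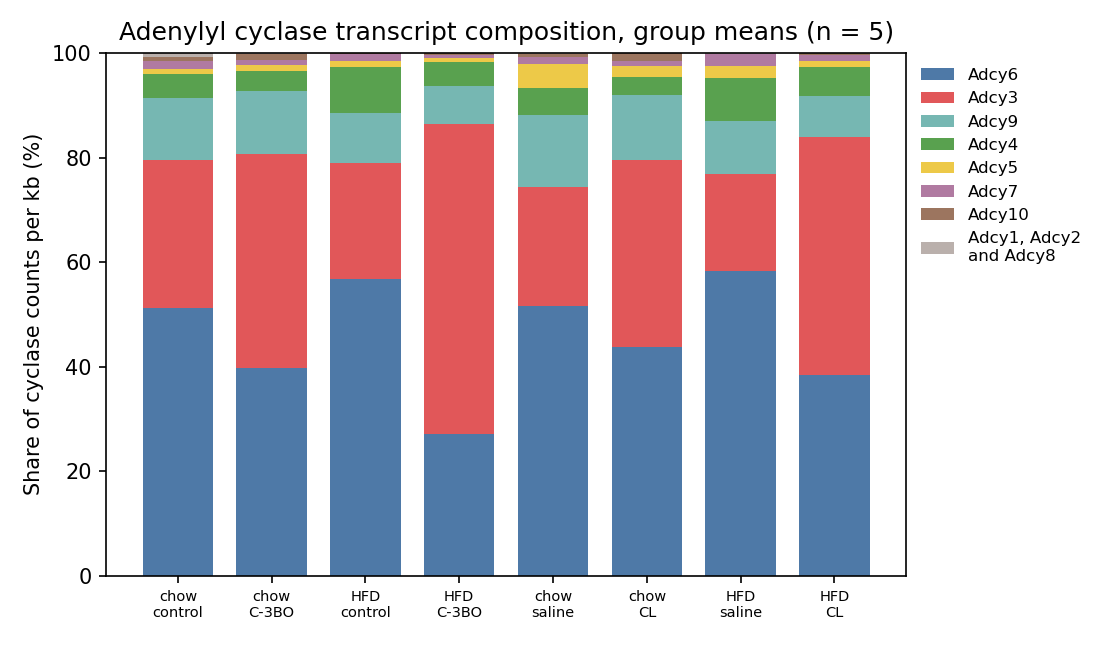
Mean share of each adenylyl cyclase gene in the summed cyclase counts per kb of exon, in percent (y axis), for the 8 groups of 5 mice (x axis). *Adcy3* takes the largest mean share in HFD C-3BO (59.4%), HFD CL (45.5%) and, just above the 39.7% of *Adcy6*, chow C-3BO mice (41.002%), and *Adcy6* does in the other 5 groups.

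*Adcy3* was the only member called higher in both models and on both diets. Estimates for *Adcy10* were also above 0 in each of these comparisons, but passed only for C-3BO on HFD. *Adcy3* lies on chromosome 12 from 4133397 to 4213524 on the plus strand of mm9 (RefSeq NM_001159537), with 3682 counted exon bases. Its last exons overlap *Cenpo* on the opposite strand, and the exons of the matching annotated transcript, 4728 bases, less the 1046 shared with *Cenpo* give exactly the counted 3682, so the shared bases did not enter the count. RefSeq lists start sites of *Adcy3* in several places, and a shorter transcript with a truncated protein is known in brown fat. Counts per gene do not separate them. The promoter windows of 250 bases before to 50 after the start are shown for the start sites of *Adcy3* in the RefSeq table (GRCm38.p6, plus strand, chr12:4133147-4133446 and chr12:4133903-4134202), because *Adcy3* is the member the results turn on. The window of *Adcy9* (GRCm38.p6, minus strand, chr16:4420449-4420748), the most abundant of the other members in that table, is shown for contrast.
Adcy3, first start: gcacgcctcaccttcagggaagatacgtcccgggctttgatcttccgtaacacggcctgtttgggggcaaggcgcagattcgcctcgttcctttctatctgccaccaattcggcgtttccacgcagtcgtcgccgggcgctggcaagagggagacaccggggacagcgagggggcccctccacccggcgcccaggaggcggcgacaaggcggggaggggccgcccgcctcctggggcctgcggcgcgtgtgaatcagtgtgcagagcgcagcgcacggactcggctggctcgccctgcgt
Adcy3, second start: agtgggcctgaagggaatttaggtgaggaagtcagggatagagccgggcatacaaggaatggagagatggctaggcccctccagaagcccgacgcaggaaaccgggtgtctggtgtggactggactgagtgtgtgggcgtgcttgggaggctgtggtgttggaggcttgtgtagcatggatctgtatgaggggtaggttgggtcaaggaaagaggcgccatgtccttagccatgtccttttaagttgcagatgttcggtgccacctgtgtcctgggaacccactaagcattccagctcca
Adcy9: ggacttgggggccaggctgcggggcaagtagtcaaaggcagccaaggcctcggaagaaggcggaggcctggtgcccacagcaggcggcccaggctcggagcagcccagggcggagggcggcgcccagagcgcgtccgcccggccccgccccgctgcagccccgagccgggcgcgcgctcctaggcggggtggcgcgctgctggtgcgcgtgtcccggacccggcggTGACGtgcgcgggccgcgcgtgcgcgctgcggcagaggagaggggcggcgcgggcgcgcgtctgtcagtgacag
The capitals mark TGACG, the core of the cAMP response element TGACGTCA, searched on both strands. The full element, which contains the core, was found in no promoter of the 8 members in the table and in 1.79% of the 32851 mouse promoters of the same length. The core was found once in the *Adcy9* window and in 1 of 3 *Adcy7* windows, in neither *Adcy3* window, and in 20.8% of all promoters. Such a match is a description of letters and not a site.

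On chow, *Adcy3* lay at 137, 156, 110, 105 and 131 CPM in control mice and at 210, 175, 184, 279 and 225 CPM in C-3BO mice, with no overlap between the groups. On HFD it lay at 119, 127, 132, 111 and 134 CPM in control mice and at 481, 644, 416, 567 and 444 CPM in C-3BO mice, again without overlap. The HFD C-3BO mice were the highest of all 40, each above every mouse of the other groups. On edgeR's quasi-likelihood test with Benjamini-Hochberg adjustment over 13277 genes, *Adcy3* was higher in C-3BO than in control mice by 0.75 ± 0.19 (log2 fold change ± SE; adjusted p = 0.00278) on chow. The difference on HFD was 2.03 ± 0.20 (adjusted p = 3.48e-10), and the 3 HFD C-3BO libraries without liver transcripts gave 2.04 against the same controls. Between the diets the difference made by C-3BO itself differed, being greater on HFD by 1.28 ± 0.27 on the log2 scale (edgeR interaction, adjusted p = 0.00573), with 1.29 (adjusted p = 0.0199) without those libraries. The brown adipocyte markers moved in the same direction, 7 of 13 being higher and 1 lower in C-3BO mice on chow and 6 of 13 higher on HFD. Pearson's r of log2 *Adcy3* with the log2 summed markers was 0.83 over the 40 libraries, which share groups and diets. Their part in the *Adcy3* difference was not tested.

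In the injected mice *Adcy3* lay at 140, 100, 112, 136 and 160 CPM with saline and at 241, 274, 225, 331 and 98.9 CPM with CL on chow. The last of the CL mice, replicate 5, lay below all saline mice, and the other 4 lay above all of them. That mouse also held the lowest *Ucp1* level of its group, 1645 CPM. On HFD the levels were 104, 98.8, 96.4, 90.2 and 98.1 CPM with saline and 374, 397, 262, 210 and 248 CPM with CL, without overlap. CL raised *Adcy3* by 0.85 ± 0.19 on chow (log2, edgeR adjusted p = 0.00192) and by 1.61 ± 0.20 on HFD (edgeR adjusted p = 1.69e-07). For CL the same contrast of diets was 0.76 ± 0.27 on the log2 scale and did not pass after adjustment over all genes (edgeR adjusted p = 0.364). Brown adipocyte markers were higher with CL in 5 of 13 on each diet, and 1 was lower on chow.

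**Figure D2:**
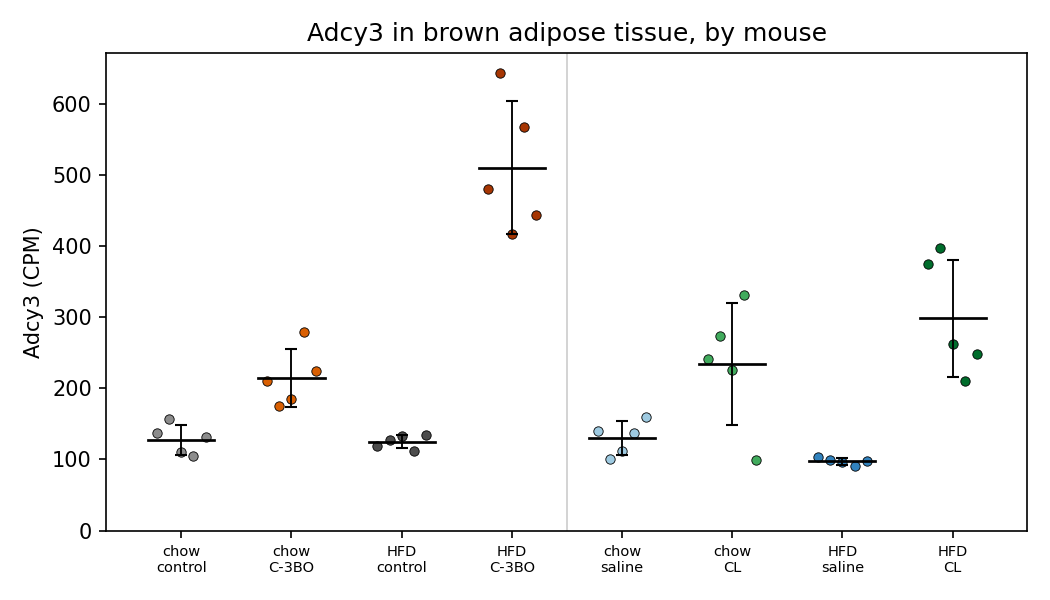
*Adcy3* in CPM (linear y axis from 0) in each of the 40 mice, by group, with uninjected mice left of the vertical line and injected mice right of it. Points are mice, horizontal lines are group means and bars are 1 SD. HFD C-3BO mice lie between 416 and 644 CPM, and 1 chow CL mouse lies at 98.9 CPM among the saline mice.

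Diet alone did not give a call for *Adcy3* where neither stimulus was present. HFD minus chow was -0.03 ± 0.19 in control mice and -0.41 ± 0.20 in saline mice on the log2 scale (edgeR adjusted p = 0.917 and 0.155), the latter passing at -0.39 (adjusted p = 0.0442) where the 10 saline libraries were fitted alone. In C-3BO mice HFD gave 1.25 ± 0.19 (edgeR adjusted p = 9.05e-06), with no overlap between diets. In CL mice it gave 0.35 ± 0.19 (edgeR adjusted p = 0.184). Set in order, the group means were 510 ± 93.7 CPM for HFD C-3BO, 298 ± 82.3 for HFD CL, 234 ± 85.8 for chow CL, 214 ± 41.1 for chow C-3BO, 130 ± 23.5 for chow saline, 128 ± 21.0 for chow control, 125 ± 9.51 for HFD control and 97.5 ± 4.87 for HFD saline. From HFD CL to chow C-3BO and again from chow saline to HFD control, neighbours in this order lay within 1 SD of each other. Groups of the 2 cohorts were not tested against each other, because injection and cohort cannot be told apart. Setting each model against its own controls first, the difference of C-3BO from CL was -0.10 ± 0.27 on chow and 0.42 ± 0.27 on HFD (log2, edgeR adjusted p = 0.872 and 0.541).

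The share of *Adcy3* in the cyclase counts per kb does not depend on how libraries are scaled. It was 28.3% ± 4.14 in chow control and 41.002% ± 4.01 in chow C-3BO mice, and 22.1% ± 0.972 in HFD control and 59.4% ± 5.19 in HFD C-3BO mice. With injections the share was 22.9% ± 2.97 with saline and 35.8% ± 7.95 with CL on chow, and 18.7% ± 0.496 with saline and 45.5% ± 8.22 with CL on HFD. Exact two-sided permutation tests of 5 against 5 mice gave p = 0.00794, the smallest that 252 regroupings allow, for C-3BO on either diet and for CL on HFD, and p = 0.0238 for CL on chow. HFD minus chow was -6.23 points in control mice (exact permutation p = 0.00794) and -4.22 points in saline mice (exact permutation p = 0.0159). A share also moves with the other members. Without *Adcy3* the cyclase sum was 88.4 CPM per kb on chow and 120 on HFD in control mice, and 120 and 115 in saline mice. The level of *Adcy3* itself did not pass in either in the fit of all 40 libraries (-0.03 and -0.41, edgeR adjusted p = 0.917 and 0.155). In C-3BO mice HFD raised the share of *Adcy3* by 18.4 points (exact permutation p = 0.00794), and in CL mice the difference was 9.72 points (exact permutation p = 0.119). After Benjamini-Hochberg adjustment over these 8 comparisons the values were 0.0127, 0.0272, 0.0212 and 0.119 for raw values of 0.00794, 0.0238, 0.0159 and 0.119.

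Summed over the 10 cyclases, the level was 123 ± 15.03 CPM per kb in chow control and 142 ± 18.5 in chow C-3BO, and 154 ± 10.9 in HFD control and 232 ± 26.2 in HFD C-3BO mice. The injected groups lay at 155 ± 29.8 with saline and 172 ± 35.0 with CL on chow, and at 142 ± 7.89 and 176 ± 17.4 CPM per kb on HFD. With *Adcy3* left out, the sum was 120 ± 8.90 CPM per kb in HFD control and 93.5 ± 8.84 in HFD C-3BO mice, between 104 and 127 in the one group and between 82.5 and 101 in the other. The same held for injected mice on HFD, with 115 ± 6.76 CPM per kb for saline and 94.7 ± 6.58 for CL without *Adcy3*. On chow the remaining sum was 88.4 ± 13.03 CPM per kb in control and 83.3 ± 10.4 in C-3BO mice, and 120 ± 25.3 with saline and 109 ± 15.1 with CL. The sums are descriptions and were not tested.

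*Adcy6*, the most abundant member without stimulation, was lower in both models on HFD. It lay at 552, 530, 527, 466 and 553 CPM in HFD control and at 334, 387, 386, 337 and 425 CPM in HFD C-3BO mice, each C-3BO mouse below each control. The difference was -0.49 ± 0.12 (log2, edgeR adjusted p = 0.000989). With HFD and saline the levels were 539, 518, 512, 457 and 462 CPM, and with HFD and CL they were 379, 377, 395, 457 and 398 CPM. The groups met at replicate 4 of each, 457 CPM, without crossing, and the difference was -0.31 ± 0.12 (edgeR adjusted p = 0.0452). That call was lost in 11 of 17 alternatives, among them leaving out any HFD saline mouse or any HFD CL mouse but replicate 4, with adjusted p between 0.00566 and 0.127 over all alternatives, whereas the C-3BO call was lost in none of 18.

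On chow, *Adcy6* lay between 307 and 436 CPM in control and between 261 and 387 CPM in C-3BO mice, and differed by -0.17 ± 0.11 (log2, edgeR adjusted p = 0.261), which became -0.36 (adjusted p = 0.0203) when libraries were scaled by their totals alone. With saline it lay between 398 and 661 CPM and with CL between 357 and 499 CPM, a difference of -0.12 ± 0.11 (edgeR adjusted p = 0.545). The contrast of the C-3BO differences between diets, -0.32 ± 0.16, did not pass (edgeR adjusted p = 0.347). HFD itself raised *Adcy6* in control mice by 0.47 ± 0.11 (edgeR adjusted p = 0.00168), with all HFD mice above all chow mice. The values in the other diet comparisons, 0.15, 0.05 and -0.15 in C-3BO, saline and CL mice, did not pass. Of 7 smooth muscle markers, 4 were higher on HFD in control mice and 4 lower in HFD C-3BO mice. With CL on HFD 0 passed in edgeR, 2 were lower at an unadjusted p under 0.05, and DESeq2 called 1 lower. Where *Adcy6* did not pass, 3 were higher on HFD in C-3BO mice, 2 higher on HFD in CL mice and 2 lower in chow C-3BO mice. The summed level of these markers was between 124 and 152 CPM in chow control, 189 and 243 CPM in HFD control and 103 and 155 CPM in HFD C-3BO mice. Over the 40 libraries, which share groups and diets, Pearson's r of log2 *Adcy6* with the log2 summed smooth muscle markers was 0.78. Their part in the *Adcy6* differences was not tested.

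*Adcy4*, of the class stimulated by βγ subunits, was higher on HFD in all 4 diet comparisons. It lay at 20.2, 15.1, 15.33, 18.8 and 27.3 CPM in chow control and at 49.4, 49.9, 46.8, 40.4 and 42.7 CPM in HFD control mice. The difference was 1.25 ± 0.14 in control and 0.98 ± 0.14 in C-3BO mice, and 0.57 ± 0.14 in saline and 0.75 ± 0.14 in CL mice (log2), with edgeR adjusted p of 0.00451 or lower and no overlap between the diets in any of them. Endothelial markers were higher in the same comparisons, in 11, 10, 4 and 9 of 12. Their summed level lay between 1103 and 1662 CPM in chow control and between 2122 and 2839 CPM in HFD control mice. Over the 40 libraries, which share their diet groups, Pearson's r of log2 *Adcy4* with the log2 summed endothelial markers was 0.84. The part of the endothelial transcripts in the *Adcy4* difference was not tested.

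**Figure D3:**
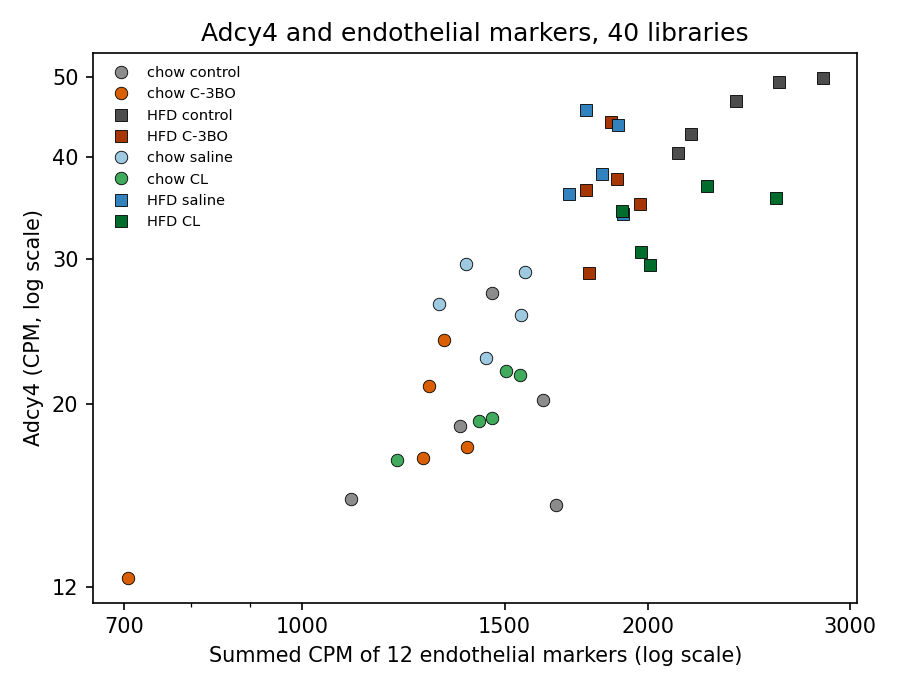
*Adcy4* in CPM (y axis) against the summed CPM of 12 endothelial markers (x axis), both on log scales, for 40 libraries coloured by group, with circles for chow and squares for HFD. HFD control mice lie at the upper right, between 40.4 and 49.9 CPM of *Adcy4*, and chow mice lie at or below 29.6 CPM.

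Both stimuli gave lower *Adcy4* in 1 diet each. On HFD it lay at 37.5, 35.0, 28.9, 36.5 and 44.0 CPM in C-3BO mice, overlapping the controls, with a difference of -0.34 ± 0.13 (log2, edgeR adjusted p = 0.0467). Endothelial markers were lower there in 9 of 12, and the call was lost in 10 of 18 alternatives, including DESeq2 (adjusted p = 0.0501) and the removal of any control but replicate 4 and of any C-3BO mouse but replicate 5. On chow it lay at 29.6, 28.96, 25.7, 26.5 and 22.8 CPM with saline and at 19.3, 19.1, 17.1, 21.7 and 21.9 CPM with CL. These groups did not overlap, and the difference was -0.43 ± 0.14 (edgeR adjusted p = 0.0293). None of the 12 endothelial markers passed in that comparison by edgeR or by DESeq2, and 1 was lower at an unadjusted p under 0.05. Skeletal muscle markers were lower there in 10 of 11, while over the 40 libraries Pearson's r of log2 *Adcy4* with their log2 sum was -0.54. Their part in the *Adcy4* difference was not tested. Leaving out saline replicate 1 or 2 or CL replicate 1, 2 or 3 ended this call, with adjusted p up to 0.0812.

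*Adcy9* did not pass in any comparison of a stimulus with its control. It lay between 84.3 and 138 CPM in chow control and between 101 and 180 CPM in chow C-3BO mice, and between 86.1 and 148 CPM in HFD control and 96.8 and 178 CPM in HFD C-3BO mice. Among injected mice it was lower on HFD, at -0.58 ± 0.18 with saline and -0.62 ± 0.18 with CL on the log2 scale (edgeR adjusted p = 0.0246 and 0.00984). The saline mice lay at 157, 157, 140, 140 and 245 CPM on chow and at 112, 108, 95.6, 112 and 133 CPM on HFD, without overlap. Without the chow saline mouse at 245 CPM, replicate 5, the difference was -0.40 (edgeR adjusted p = 0.128), and the call was also lost without HFD saline replicate 1, 2 or 3. The CL groups overlapped between diets. Scaled by library totals, neither call held, at -0.41 with saline and -0.45 with CL (edgeR adjusted p = 0.123 and 0.0735). In uninjected mice the diet differences were 0.03 and -0.02 and did not pass. All injected HFD libraries carried liver transcripts, with *Alb* at 62.1 CPM or above, against 1.01 CPM or below in injected chow libraries. The part of this difference between the libraries in the *Adcy9* calls was not tested.

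*Adcy10*, the soluble cyclase, was low and varied widely. It lay at 0.720, 0.445, 0.206, 4.58 and 0.596 CPM in HFD control and at 4.22, 1.24, 2.94, 9.78 and 6.14 CPM in HFD C-3BO mice. The difference was 1.77 ± 0.57 (log2, edgeR adjusted p = 0.0143), with overlap through 1 control mouse. It was 1.35 (adjusted p = 0.0832) without HFD C-3BO replicate 4 and 1.02 (adjusted p = 0.257) without replicates 4 and 5, the libraries with liver transcripts. The call was also lost when the 10 libraries were fitted alone (adjusted p = 0.0596). Without HFD control replicate 4 it was 3.23. With CL on chow it lay at 14.2, 16.5, 16.0, 15.4 and 6.73 CPM, against 5.30, 1.78, 5.45, 11.3 and 3.83 CPM with saline. The lowest CL mouse, again replicate 5, lay inside the saline range, and the difference of 1.31 ± 0.48 did not pass (edgeR adjusted p = 0.0559). It passed in 4 of 16 alternatives, among them without that mouse, with 1.49 (adjusted p = 0.0318), and without saline replicate 4, with 1.74 (adjusted p = 0.0181). Also above 0 but short of the threshold were C-3BO on chow, at 0.59 ± 0.49, and CL on HFD, at 1.41 ± 0.72 (log2, edgeR adjusted p = 0.371 and 0.157). On HFD *Adcy10* was lower than on chow, at -1.98 ± 0.55 in control, -2.43 ± 0.65 in saline and -2.32 ± 0.54 in CL mice (log2, edgeR adjusted p = 0.00455, 0.00939 and 0.00162). The diets overlapped in control mice and did not in saline or CL mice. On HFD *Adcy10* lay between 0.630 and 1.58 CPM with saline and between 1.09 and 4.20 CPM with CL. HFD control replicate 3 lay at its limit of 3 counts, 0.206 CPM, and HFD saline replicate 4 below its limit of 3.01 CPM. The size of these differences thus rests on few reads. Endothelial markers were higher on HFD in control, saline and CL mice in 11, 4 and 9 of 12. Skeletal muscle markers were lower in control mice in 11 of 11, and in saline and CL mice in 0. Over the 40 libraries, which share groups and diets, Pearson's r of log2 *Adcy10* with the log2 summed markers was -0.67 for endothelium and -0.62 for smooth muscle. The part of these cells in the *Adcy10* differences was not tested. The value in C-3BO mice, -0.81 ± 0.51, did not pass (edgeR adjusted p = 0.26). In that comparison 10 of 12 endothelial markers were higher and 11 of 11 skeletal muscle markers lower.

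*Adcy5*, the close relative of *Adcy6*, was lower with CL on chow. It lay at 40.8, 22.2, 22.5, 30.2 and 66.7 CPM with saline and at 11.6, 19.6, 37.6, 12.3 and 8.63 CPM with CL, 4 of the 5 CL mice lying below all saline mice. The difference was -1.03 ± 0.34 (log2, edgeR adjusted p = 0.0348). Without saline replicate 5 it was -0.69 (adjusted p = 0.169), and leaving out saline replicate 1 or CL replicate 1, 2, 4 or 5 also ended the call. Skeletal muscle markers were lower in the same comparison in 10 of 11. Their summed level was 3027, 59.8, 14.1, 1333 and 2106 CPM in the saline mice and between 14.8 and 170 CPM in the CL mice. The 3 saline mice with the most muscle transcripts, replicates 1, 4 and 5, also held the highest *Adcy5*, while over the 40 libraries Pearson's r of log2 *Adcy5* with the log2 summed muscle markers was -0.02. The part of the muscle transcripts in the *Adcy5* difference was not tested. HFD minus chow for *Adcy5* was -1.15 ± 0.36 in saline mice (edgeR adjusted p = 0.0251), with levels between 8.40 and 25.0 CPM on HFD that overlapped those on chow. Without chow saline replicate 5 the value was -0.81 (adjusted p = 0.13), and the call was also lost without chow saline replicate 1 or HFD saline replicate 1 or 4. In uninjected mice it lay between 1.90 and 12.2 CPM in all 4 groups and did not pass in any comparison.

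*Adcy7*, a cyclase known from blood and immune cells, passed in 1 comparison. In saline mice it was higher on HFD by 0.75 ± 0.25 (log2, edgeR adjusted p = 0.0368), at 24.8, 19.4, 17.2, 24.1 and 14.8 CPM against 8.86, 13.6, 15.7, 11.4 and 8.76 CPM on chow, with overlap at the edge. The call was lost without chow saline replicate 1, 4 or 5 or HFD saline replicate 1, 2 or 4, with adjusted p up to 0.115. Macrophage markers were higher there in 7 of 11 and lower in 1, with a summed level between 207 and 417 CPM on chow and between 420 and 974 CPM on HFD. Over the 40 libraries Pearson's r of log2 *Adcy7* with log2 summed macrophage markers was 0.88, and their part in the difference was not tested. *Adcy7* was below control in both models on both diets, between -0.27 and -0.62 on the log2 scale, and none of these 4 differences passed (edgeR adjusted p between 0.0654 and 0.507).

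*Adcy2* was measurable mainly on chow in the uninjected mice. It had 13, 28, 23, 71 and 38 counts in chow control and 2, 1, 3, 8 and 1 counts in HFD control mice, and 2, 22, 7, 8 and 10 counts in chow C-3BO and 0, 0, 1, 1 and 1 counts in HFD C-3BO mice. The HFD values lie mostly at or below the limit of 3 counts, as does chow C-3BO replicate 1, so the size of the differences rests on few reads. It was lower on HFD, at -3.70 ± 0.66 in control and -3.57 ± 0.94 in C-3BO mice (log2, edgeR adjusted p = 3.21e-05 and 0.00469), and the chow and HFD groups did not overlap. In C-3BO mice the nearest values were 0.301 CPM on chow and 0.205 CPM on HFD. Skeletal muscle markers were lower in 11 of 11 in both comparisons, with a summed level between 953 and 11428 CPM in chow control and between 6.26 and 269 CPM in HFD control mice. Over the 40 libraries Pearson's r of log2 *Adcy2* with log2 summed skeletal muscle markers was 0.80, and their part in the difference was not tested. The C-3BO difference on chow, -1.42 ± 0.57, just missed the threshold (edgeR adjusted p = 0.0512) and passed in 5 of 16 alternatives. Skeletal muscle markers had a median log2 fold change of -1.64 there. Of these 11 markers 0 passed, and 4 were lower at an unadjusted p under 0.05. The part of the muscle transcripts in this difference was not tested either. *Adcy1*, best known from neurons, had at most 18 counts in a library and passed in no comparison.

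**Figure D4:**
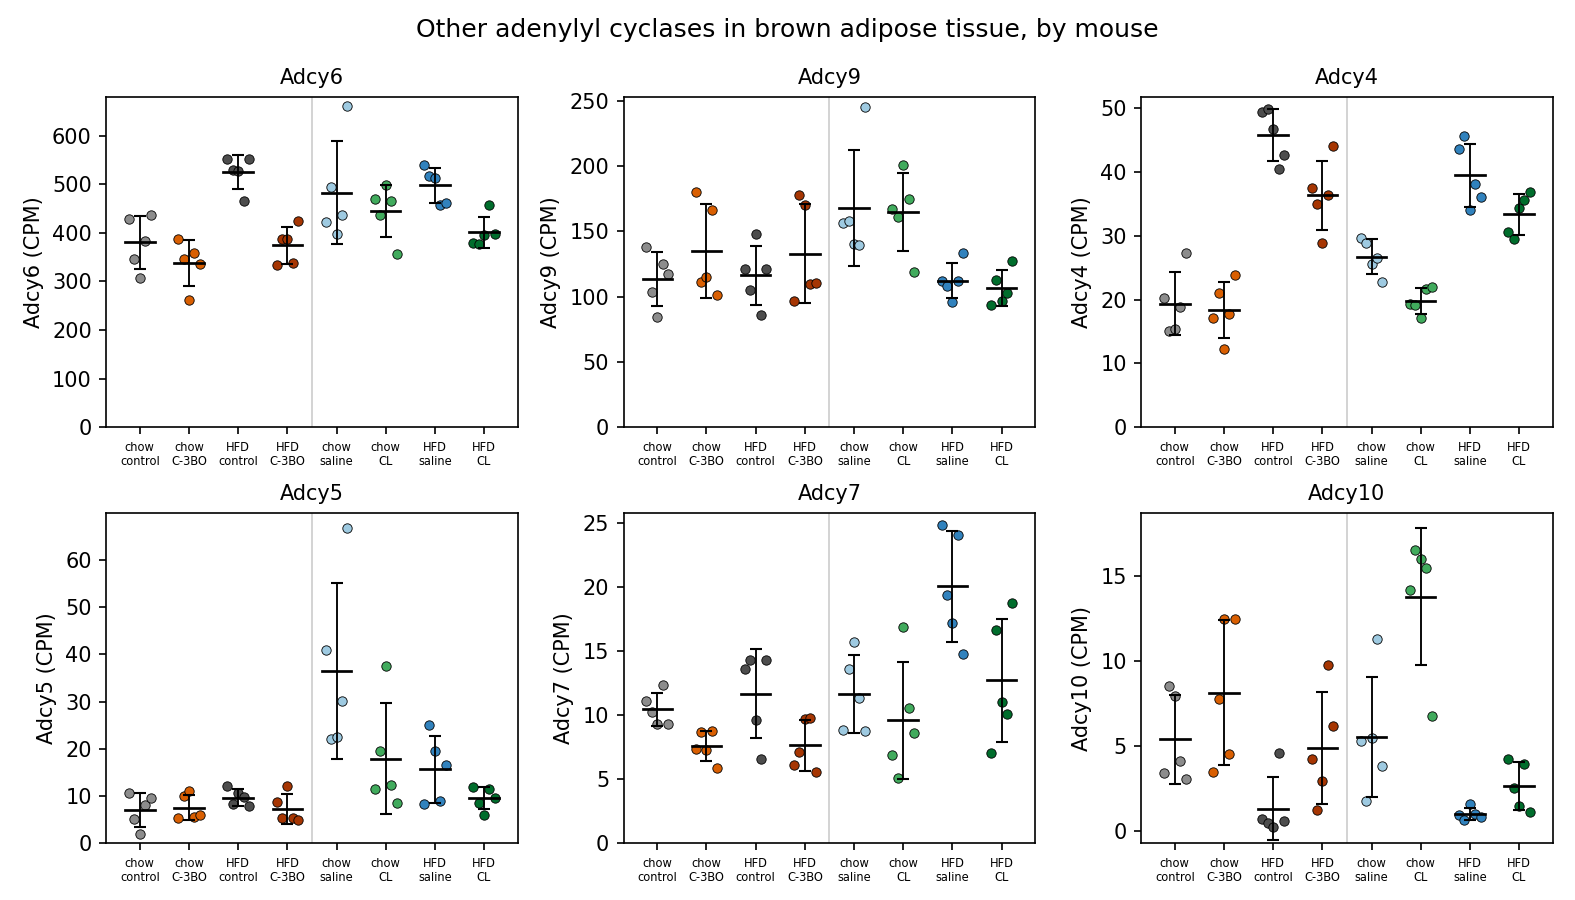
*Adcy6*, *Adcy9*, *Adcy4*, *Adcy5*, *Adcy7* and *Adcy10* in CPM (linear y axes, 1 panel a gene) in each of the 40 mice, by group, with means (lines) and 1 SD (bars). *Adcy4* is higher on HFD in each pair of diets, *Adcy6* is lower in HFD C-3BO than in HFD control mice, and *Adcy10* is lowest in HFD control and HFD saline mice.

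Counted over the 9 tested members, C-3BO on chow gave 1 higher member, *Adcy3*, and 0 lower, where 15.8% of all tested genes were higher and 15.9% lower. At an unadjusted p under 0.05, 1 member was lower, and DESeq2 called 0 lower. On HFD 2 members were higher and 2 lower, against 19.3% and 15.5% of all genes. CL gave 1 higher and 2 lower on chow, against 9.16% and 6.13%, and 1 higher and 1 lower on HFD, against 12.7% and 10.8%. HFD gave 2 higher and 2 lower members in control mice (15.4% and 17.5% of all genes), and 2 higher and 1 lower in C-3BO mice (13.5% and 12.2%). It gave 2 higher and 3 lower in saline mice (7.45% and 8.04%), and 1 higher and 2 lower in CL mice (10.9% and 12.7%). The median log2 fold change of members was -0.07 and -0.34 for C-3BO on chow and HFD, where that of all genes was -0.03 and -0.02. For CL the members' median was -0.12 and -0.31, where that of all genes was -0.01 on each diet. The difference of the C-3BO effect between diets passed for *Adcy3* alone among members, with 2.08% of all genes called. The corresponding difference for CL passed for 0 members (0.0151% of all genes), and C-3BO minus CL passed for 0 members on chow (6.24%) and on HFD (1.80%), by edgeR and by DESeq2. At an unadjusted p under 0.05 these held 1, 1 and 0 members.

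**Figure D5:**
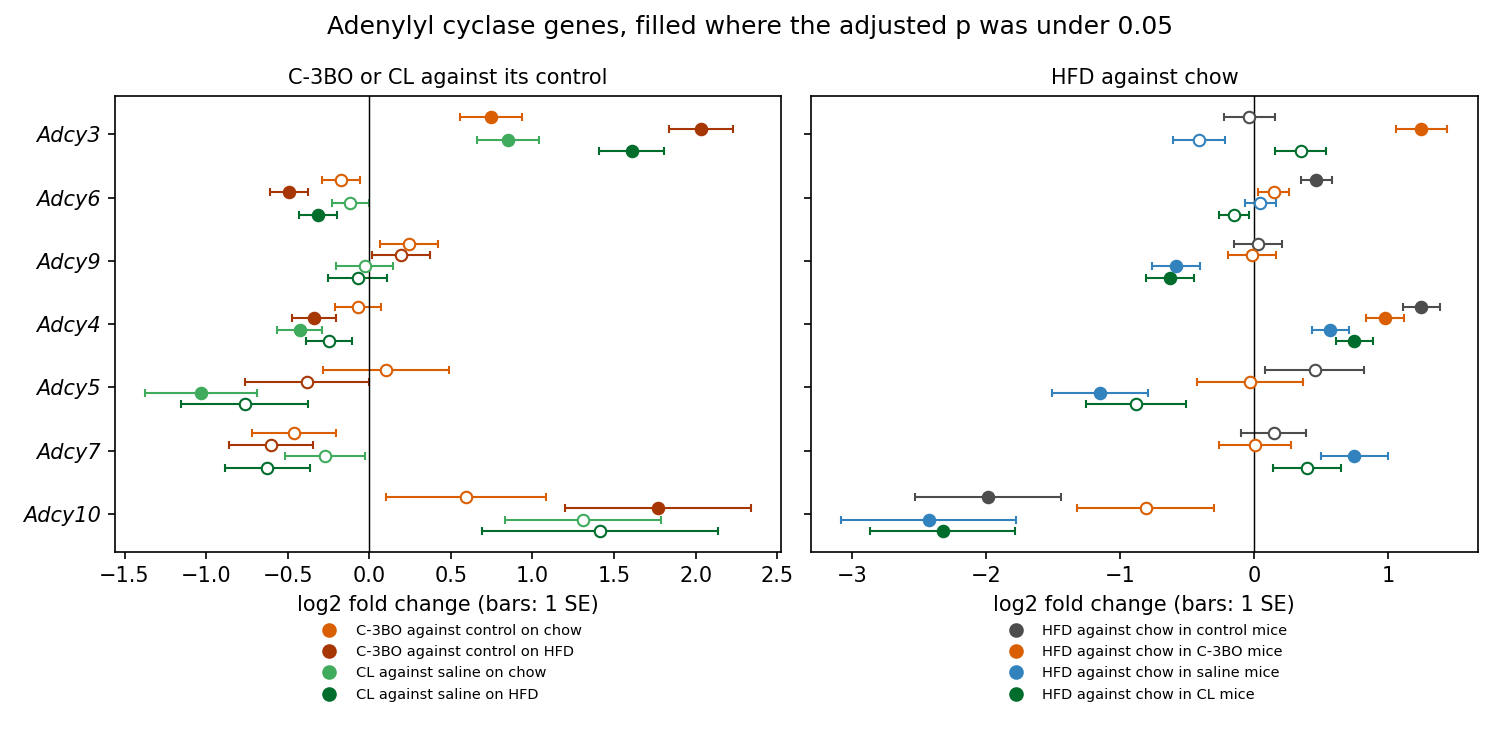
log2 fold changes (x axes) of 7 cyclase genes (y axis) for C-3BO or CL against its control (left) and for HFD against chow (right). Points are edgeR estimates, bars are 1 SE, and filled points passed an adjusted p of 0.05. *Adcy3* is filled and right of 0 for all 4 stimulus comparisons.

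Genes on either side of the cyclases are given by list, as counts to be read against the shares of all genes above and with no test of the difference. Of 14 tested phosphodiesterases, which degrade cAMP, 5 were higher and 1 lower in C-3BO mice on chow, 6 and 1 on HFD, 2 and 1 with CL on chow and 4 and 1 with CL on HFD. The median log2 fold change of these 14 was 0.28 and 0.46 for C-3BO on chow and HFD and 0.07 and 0.21 for CL. *Pde7b*, specific for cAMP, was higher in HFD C-3BO mice by 2.42 ± 0.21 (log2, edgeR adjusted p = 4.03e-11), and in the other 3 stimulus comparisons by 1.76, 1.29 and 1.83. *Pde3a* was higher in HFD C-3BO mice by 1.08 ± 0.35 and on chow by 1.01, and *Pde2a*, which cGMP stimulates, was lower in the HFD C-3BO group, at -0.40 ± 0.14. In CL mice *Pde3a* was at -0.26 and -0.28 and did not pass.

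Of 20 tested G protein subunits and regulators of cyclases, 6 were higher and 7 lower in C-3BO mice on chow and 4 and 6 on HFD, and with CL 4 and 1 on chow and 5 and 1 on HFD. Their medians were -0.10 and -0.09 for C-3BO and 0.05 and 0.06 for CL on chow and HFD (log2). *Gnas*, which encodes the stimulatory α subunit, was higher by 0.83 ± 0.15 in HFD C-3BO mice (log2, edgeR adjusted p = 4.27e-05), and by 0.45, 0.55 and 0.89 in chow C-3BO, chow CL and HFD CL mice. *Gnao1*, an inhibitory-class α subunit, was higher by 0.86 ± 0.12 in HFD C-3BO mice and by 0.69, 0.66 and 0.84 in the others. *Rgs2*, a regulator of G protein signaling that can also inhibit cyclases, was lower in C-3BO mice, at -1.90 ± 0.25 on HFD and -2.25 on chow. *Gnb4*, a β subunit, was lower at -0.74 ± 0.18 and -0.86. With CL these genes were at 0.34 and -0.52 for *Rgs2* and at 0.04 and 0.31 for *Gnb4* on chow and HFD, and did not pass.

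Of 18 tested Gs-coupled receptors, 5 were higher and 3 lower in C-3BO mice on chow and 4 and 4 on HFD, and 2 and 2 with CL on chow and 1 and 5 on HFD. The medians were 0.07 and 0.12 for C-3BO and -0.27 and -0.33 for CL (log2). *Tshr*, the thyrotropin receptor, was lower at -0.96 ± 0.26 and *Mc5r*, a melanocortin receptor, higher by 2.34 ± 0.76 in HFD C-3BO mice. *Gpr3*, the transgene, is itself counted among the higher genes of this list in C-3BO mice. Of 12 tested Gi-coupled receptors, 2 were higher and 2 lower in C-3BO mice on chow and 1 and 2 on HFD, with medians of 0.01 and -0.22 on the log2 scale, and of -0.11 and -0.14 for CL. *Adora1*, the adenosine A1 receptor, was lower at -0.82 ± 0.12, *Cxcr4*, a chemokine receptor, was lower at -0.96 ± 0.32 and *Ffar2*, a short-chain fatty acid receptor, was higher by 1.18 ± 0.41 in HFD C-3BO mice. With CL none of the 12 passed in edgeR on either diet, while 2 on each diet had an unadjusted p under 0.05, and DESeq2 called 0 on chow and 1 on HFD.

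Of 20 tested effectors of cAMP, 3 were higher and 3 lower in C-3BO mice on chow and 4 and 2 on HFD, and with CL 1 and 2 on chow and 2 and 2 on HFD. Their medians lay between -0.09 and -0.02 in the 4 comparisons (log2). *Hcn2*, a cyclic nucleotide-gated cation channel, was higher by 4.62 ± 0.27 in HFD C-3BO mice (log2, edgeR adjusted p = 6.90e-16), and by 1.00, 1.24 and 3.88 in chow C-3BO, chow CL and HFD CL mice. *Rapgef4*, the exchange factor Epac2, was higher on HFD in C-3BO mice by 1.01 ± 0.25. *Pkia*, an inhibitor of the cAMP-dependent protein kinase, was lower at -2.24 ± 0.56 in HFD C-3BO mice and at -1.53, -1.69 and -1.58 in the others, and *Crtc3*, a coactivator of CREB, was lower at -0.66 ± 0.11 in HFD C-3BO mice.

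The genes whose log2 CPM was most like that of *Adcy3* over the 40 libraries, among 10319 genes with a mean of at least 5 CPM, were *Pde7b* (Pearson's r = 0.922), *Pgap2* (r = 0.918) and *Bsg* (r = 0.911). For *Adcy4* they were *Gpr56* (r = 0.916), *Arap3* (r = 0.891) and *S1pr1* (r = 0.885), and for *Adcy6* *Trim3* (r = 0.864), *Mllt6* (r = 0.859) and *Agrn* (r = 0.834). These are descriptions across libraries that share groups, diets and depth. Between members, *Adcy3* and *Adcy6* had r = -0.38, *Adcy4* and *Adcy10* r = -0.73, and *Adcy5* and *Adcy6* r = 0.54 over the same libraries.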

How the data were processed

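BAT of 40 mice in 8 groups of 5 was profiled. The authors isolated poly(A) RNA, prepared TruSeq libraries, sequenced them on a HiSeq 1500 and aligned the reads to mm9 by STAR. HOMER tag directories were then made, and iRNA-seq counted reads over RefSeq exons. The deposited file holds these raw counts for each gene and mouse, beside a length column of counted exon bases. Versions, filters and strandedness are not given in the sources used here.

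All 20295 genes were read and groups were taken from the sample labels. In edgeR 4.0.16 (R 4.3.3, limma 3.58.1), filterByExpr with a minimum count of 10 kept 13277 genes, libraries were scaled by TMM, and a quasi-likelihood model with 1 mean for each of the 8 groups was fitted to all 40 libraries. A gene was called at a Benjamini-Hochberg adjusted p under 0.05 over the tested genes. SEs are the log2 fold change divided by the square root of F. Log2 CPM used a prior count of 2. Library totals of 849126 to 15260516 set the precision of each value. Shares were tested by exact permutation over mice. The members, pathway lists and marker lists were chosen with earlier results of these data known. All 10 members are named. In each pathway list, up to 2 genes with the largest rise and 2 with the largest fall among those called in C-3BO against control on HFD are named, and up to 3 genes most like *Adcy3* and each member called in at least 2 stimulus comparisons. A gene that this rule names is not reported here.

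Alternatives were DESeq2 1.42.0, library totals or RLE factors, no filter, at least 10 counts in every library, the libraries of a comparison alone, a replicate block, each mouse left out, and HFD C-3BO replicates 4 and 5 left out. Replicate numbers were not taken as pairs, because in no comparison did all 5 same-numbered pairs correlate above 0.1. In C-3BO against control on chow 3 pairs did, with a mean r of 0.17 against -0.04 for other pairs. A shared factor among some of these mice was not tested. The edgeR step was tested on simulated counts. Protein sequences were not analysed here. Promoter sequences are those of RefSeq on GRCm38.p6, matched by symbol for 8 of the 10 members. Python 3.11.15 and matplotlib 3.10.9 drew the figures.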

Additional observations from a re-analysis of the deposited data

Results flagged for a closer look

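Of 72 sets of 5 mice, 1 for each tested member and group, 8 held a mouse set apart from the other 4 by Dixon's test, where chance gives about 1 in 20. *Adcy6* was highest in replicate 4 of HFD CL, at 457 CPM. *Adcy9* was highest in replicate 5 of chow saline, at 245 CPM. *Adcy10* was highest in replicate 4 of HFD control, at 4.58 CPM, and lowest in replicate 5 of chow CL, at 6.73 CPM. The rest rested on few counts: *Adcy1* at 0.926 CPM in replicate 2 of chow C-3BO and 1.47 CPM in replicate 1 of chow CL, and *Adcy2* at 0.591 CPM in replicate 4 of HFD control and 0.727 CPM in replicate 5 of HFD CL.

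The C-3BO effect on *Adcy3* differed between diets by 1.28 on the log2 scale in edgeR's interaction test. Mean *Gpr3* was 375 CPM in chow C-3BO and 792 CPM in HFD C-3BO mice, and its part in this difference was not tested.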

How the results depend on the processing

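The 4 stimulus calls of *Adcy3*, its rise on HFD in C-3BO mice and its interaction of 1.28 kept their direction and stayed past the threshold in all alternatives run. Of 25 calls of members in the 8 comparisons of 2 groups, 16 were lost in no alternative that tested the gene. Of the rest, 9 were lost in at least 1, and 0 of the 25 changed sign. *Adcy2*, *Adcy5* and *Adcy10* were not tested where every library had to hold at least 10 counts, so their calls were not tried there. Library totals in place of TMM moved the median log2 fold change of all genes by up to -0.23 (C-3BO on chow) and 0.21 (HFD in C-3BO mice), and there *Adcy3* passed for HFD against chow in CL mice (0.53, adjusted p = 0.0295). With 33 counts *Adcy8* is below what this depth can compare.

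Members called for C-3BO on chow were 3 with library totals, 2 with RLE factors, 3 with that comparison's libraries alone and 1 to 2 with a mouse left out. For CL on HFD there was 1 with no filter and 1 to 2 with a mouse left out. With 10 counts in every library fewer genes were tested, and HFD gave 2 in control and 3 in saline mice. With a mouse left out, the ranges were 2 to 5 for C-3BO on HFD, 1 to 4 for CL on chow, 2 to 5 for HFD in saline mice, 1 to 2 for the C-3BO interaction and 0 to 1 for C-3BO minus CL on chow. The replicate numbers were not taken as pairs. With the replicate block, 1 member passed for CL on HFD, the adjusted p of *Adcy6* being 0.0508. *Adcy10* passed for CL on chow (1.43, adjusted p = 0.0311). An exact test by sign flips of same-numbered pairs cannot go below p = 0.0625 with 5 pairs, so the *Adcy3* share differences of 12.7, 37.3, 12.9, 26.8, -6.23, 18.4 and -4.22 points could not pass under that block.

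Sign changes were seen only for uncalled values, 18 of 47 such member results and the *Adcy3* contrast of C-3BO with CL on chow, at adjusted p of 0.501 or above. With library totals *Adcy5* gave -0.11 for C-3BO on chow and, for HFD in C-3BO mice, 0.17, and *Adcy9* there gave 0.16. *Adcy3* gave 0.13 in control, *Adcy1* 0.16 in saline and *Adcy6* 0.0249 in CL mice. For *Adcy7* on HFD in C-3BO mice, no filter gave -0.0225, 10 counts in every library -0.0257, the replicate block -0.00379 and the comparison's libraries alone -0.0192. *Adcy9* on HFD in control mice gave -0.0023 with 10 counts in every library, and *Adcy1* for CL on chow 0.10 with the replicate block. Without replicates 4 and 5 of HFD C-3BO, *Adcy1* gave 0.17 against control, and *Adcy5* 0.20 and *Adcy9* 0.14 against chow. With a mouse left out, values ranged as follows. For C-3BO on chow they ran from -0.17 to 0.0832 for *Adcy4* and -0.13 to 0.32 for *Adcy5*, and on HFD from -0.87 to 0.0676 for *Adcy1*. For CL on chow they ran from -0.19 to 0.0242 for *Adcy6*, -0.33 to 0.27 for *Adcy1* and -0.11 to 0.15 for *Adcy9*, and on HFD from -0.14 to 0.00993 for *Adcy9*. For HFD in control mice they ran from -0.11 to 0.04995 for *Adcy3* and -0.0749 to 0.12 for *Adcy9*. In C-3BO mice they ran from -0.33 to 0.11 for *Adcy5*, -0.13 to 0.0895 for *Adcy7*, -1.15 to 0.39 for *Adcy1* and -0.17 to 0.11 for *Adcy9*. In saline mice they ran from -0.57 to 1.16 for *Adcy2*, -0.00765 to 0.19 for *Adcy6* and -0.33 to 0.25 for *Adcy1*, and in CL mice from -1.57 to 0.62 for *Adcy2*. *Adcy3* for C-3BO minus CL on chow ran from -0.30 to 0.0552. The cause of these changes was not tested.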
